A study of Mus musculus with 16 samples.

Results

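Hair keratins, inner root sheath keratins and keratin-associated proteins are the structural proteins of the hair shaft and of the sheath that moulds it. The genes described here are those whose symbol begins with Krtap, or that are among 20 named keratins (Krt25 to Krt28, Krt31, Krt32, Krt33a, Krt33b, Krt34 to Krt36, Krt71 to Krt73 and Krt81 to Krt86). They were taken by symbol, as a set that was proposed with earlier results of these data known. Of the 20 keratins, 19 were found, and Krt85 was not analysed here. With 54 keratin-associated protein genes this gave 73 genes, of 19439 listed in at least 1 library.

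RNA was sequenced from the ear skin lesions of 16 mice of the BALB/c strain at 8 weeks of age, with 1 library for each animal. Every mouse received imiquimod (IMQ) on the ear, a drug that activates innate immune receptors and gives psoriasis-like inflammation in mouse skin, so no group shows untreated skin. The mice also received, in the skin of the ear, 10 µl of 10 mM lysophosphatidylcholine (LPC), a phospholipid with a single fatty acid chain, or 10 µl of saline as vehicle, planned at 1 injection a day over 6 days. The groups are LPC day 7, vehicle day 7, LPC day 4 and vehicle day 4, with 4 mice each. The days are those of the sample titles and of the study's design text, which gives them as the days of killing, while the names of the deposited files carry days 3 and 6 in place of 4 and 7. The vehicle groups carry only the imiquimod label, and that they received saline comes from the study's design text.

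Hair grows in cycles, and the genes of the shaft and inner root sheath are transcribed mainly in the bulb of a growing follicle, as its cells move up and harden. Acidic type I keratins pair with basic type II keratins into filaments, and keratin-associated proteins, rich in cysteine or in glycine and tyrosine, embed and cross-link these filaments. The inner root sheath has its own keratins and is lost before the shaft leaves the skin, while the shaft consists of a cortex and an outer cuticle of flat, overlapping cells.

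The 73 genes fell into 8 classes by name. There were 4 type I and 3 type II inner root sheath keratins, 7 type I and 5 type II hair keratins, 18 high-sulphur, 17 ultrahigh-sulphur and 14 glycine-tyrosine-rich proteins, and 5 other keratin-associated proteins. On build GRCm38.p6 they lie mostly in clusters of related genes: 33 on chromosome 11, 23 on chromosome 16, 8 on chromosome 15, 5 on chromosome 7, 3 on chromosome 10 and 1 on chromosome 1. All type I keratins of the set are on chromosome 11 and all type II keratins on chromosome 15. The 14 glycine-tyrosine-rich genes are all on chromosome 16, and the 5 Krtap5 genes tested are on chromosome 7.

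Promoter sequences of 63 of the 73 genes were available from RefSeq (GRCm38.p6), and 4 are shown because the results below turn on these genes and because they differ in the short motifs they hold. Each is the 250 bases before the start of the gene, 5′ to 3′ on the gene's own strand. Capitals mark the TATA box (TATAAA), the core site of LEF1 and other TCF factors (CTTTGAA with its variant CTTTGAT, and CTTTGTA with its variant CTTTGTT) and an element bound by HOXC13, a homeobox protein needed for hair shaft formation (TTAATNAA, TTAATNAG, TTAATNGA, TTAATNGG, TTTATNAA, TTTATNAG, TTTATNGA or TTTATNGG), each searched on both strands. Krt31 is at chr11:100050552-100050801 and Krt32 at chr11:100088270-100088519, both on the minus strand, Krt71 at chr15:101743098-101743347 on the minus strand, and Krtap5-4 at chr7:142303252-142303501 on the plus strand.
Krt31: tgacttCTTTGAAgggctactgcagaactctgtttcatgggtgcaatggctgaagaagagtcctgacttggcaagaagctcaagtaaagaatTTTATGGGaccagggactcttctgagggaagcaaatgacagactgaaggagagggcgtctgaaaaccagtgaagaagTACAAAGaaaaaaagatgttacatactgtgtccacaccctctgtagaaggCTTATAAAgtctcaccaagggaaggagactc
Krt32: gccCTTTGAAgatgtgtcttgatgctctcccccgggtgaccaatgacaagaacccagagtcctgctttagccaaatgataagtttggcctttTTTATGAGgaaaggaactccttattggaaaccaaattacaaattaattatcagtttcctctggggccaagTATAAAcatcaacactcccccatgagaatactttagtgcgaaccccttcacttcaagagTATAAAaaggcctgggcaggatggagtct
Krt71: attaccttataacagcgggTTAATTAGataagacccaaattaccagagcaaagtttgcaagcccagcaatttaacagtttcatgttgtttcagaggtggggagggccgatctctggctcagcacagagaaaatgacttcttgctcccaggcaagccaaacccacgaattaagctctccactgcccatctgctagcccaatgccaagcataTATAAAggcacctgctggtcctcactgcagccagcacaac
Krtap5-4: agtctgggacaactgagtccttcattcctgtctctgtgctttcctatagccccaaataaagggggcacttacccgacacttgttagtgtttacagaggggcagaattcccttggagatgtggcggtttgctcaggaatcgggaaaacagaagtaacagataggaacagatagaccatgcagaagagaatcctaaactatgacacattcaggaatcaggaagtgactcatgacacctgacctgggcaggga
Krt31 and Krt32, type I hair keratins of the cortex and of the cuticle, each hold a HOXC13 element that begins 158 bases before the start and a TATA box that begins 29 bases before it. Krt71, a type II keratin of the inner root sheath, has its HOXC13 element 231 bases and its TATA box 40 bases before the start. Krtap5-4, an ultrahigh-sulphur protein, has none of the 3 motifs in this window. Its window ends in gggcaggga, the letters that stand directly before TATAAA in Krtap5-1 and Krtap5-5. Bases past the annotated start were not searched, so a TATA box there would be missed.

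Across the 63 promoters, TATAAA was found in 51 (81.0%), against 3504 of all 27025 promoters in the table (13%). A TATAAA on the gene's strand that begins 40 to 20 bases before the start was present in 37 of the 63 (58.7%), against 600 of all promoters (2.2%). The LEF1/TCF core was in 22 of the 63 (34.9%) and in 14.9% of all promoters. The HOXC13 element was in 37 (58.7%), against 17.7% of all. Because this element can share letters with TATAAA, matches that share no base with it were also counted, and these were in 31 (49.2%), against 15% of all promoters. These are letter matches, not sites shown to be bound, and promoters of neighbouring genes with related sequence are not independent of each other.

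Libraries held 18704197 to 20131513 expected counts, and the 73 genes together took between 0.00107% (vehicle day 7 mouse 3) and 0.706% (vehicle day 4 mouse 2) of them. The spread within a group is a spread between animals. The tissue label was checked with 7 epidermal genes (Krt5, Krt14, Krt1, Krt10, Trp63, Lor and Flg), whose FPKM summed to between 10200 and 23770 in every library. A list of 10 skeletal muscle genes summed to 188 to 8878 FPKM in LPC day 7, 1228 to 5289 in vehicle day 7, 172 to 1579 in LPC day 4 and 2005 to 19570 in vehicle day 4, so muscle transcripts differed between mice and groups. Neutrophil markers (5 genes) summed to 9400 to 26280 FPKM in LPC day 7, 458 to 10510 in vehicle day 7, 871 to 6604 in LPC day 4 and 149 to 5876 in vehicle day 4. These sums are mainly S100a8 and S100a9, which averaged 7699 and 9127 FPKM in LPC day 7. There Csf3r, Cxcr2 and Ly6g averaged 65.8, 37.2 and 4.92 FPKM. In bulk skin, fewer hair follicle cells and less RNA per follicle cell cannot be told apart.

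The hair genes differed more between mice of the same group than most genes did. FPKM divides a gene's fragments by its length and by the size of the library, so that summed FPKM can be set side by side between mice. The 73 genes summed to 44.8, 81.9, 182 and 451 FPKM in mice 1 to 4 of LPC day 7, to 115, 250, 6.77 and 534 in vehicle day 7, to 230, 1860, 3202 and 37.8 in LPC day 4, and to 2317, 5093, 2184 and 346 in vehicle day 4. The 5 highest sums all belonged to day 4 mice, but mouse 4 of LPC day 4 had less than every mouse except mouse 3 of vehicle day 7. The highest sum was 10.1 times the lowest within LPC day 7, 78.8 times within vehicle day 7, 84.6 times within LPC day 4 and 14.7 times within vehicle day 4. Over all 16 mice the ratio was 752. The biological coefficient of variation in the edgeR model ran from 84.4% to 182% over the 69 genes tested, with a median of 121%, against a median of 25.2% over all genes tested.

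The same mice were high for most of the set. Mouse 2 of vehicle day 4 had the highest FPKM of all 16 mice for 46 of the 73 genes, and mouse 3 of LPC day 4 for 23. At the other end, 32 of the genes were listed above 0 in mouse 3 of vehicle day 7 and 34 in mouse 4 of LPC day 4, against 62 to 72 in each of the other 14 mice. In mouse 3 of vehicle day 7 the highest were Krt84, a type II hair keratin, at 1.67 FPKM and Krtap3-2, a high-sulphur protein, at 1.58 FPKM. In mouse 4 of LPC day 4 these genes had 1.63 and 1.32 FPKM, and the highest were the inner root sheath keratins Krt25 (8.22 FPKM) and Krt71 (7.66 FPKM). In total 27 genes were listed in all 16 libraries.

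**Figure D1:**
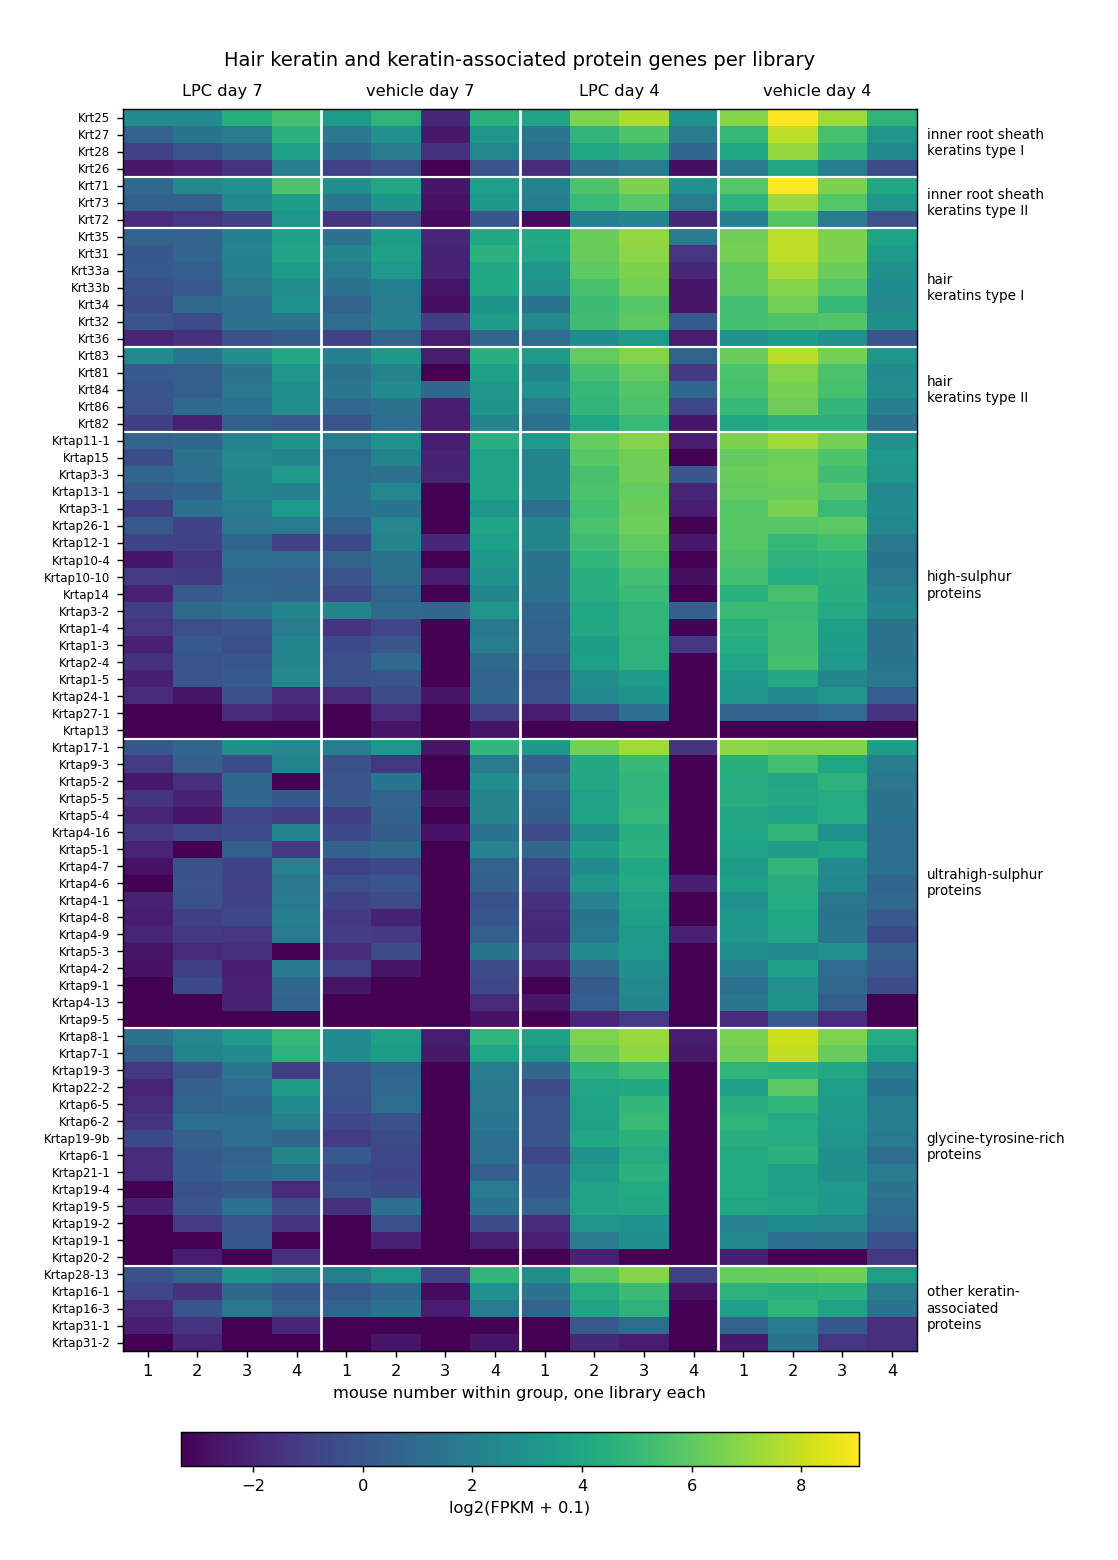
Heat map of the 73 genes (rows, by class, the highest mean first) in the 16 libraries (columns, by group and mouse number), coloured by log2(FPKM + 0.1). Mouse 3 of vehicle day 7 is dark in every class and mouse 4 of LPC day 4 in the keratin-associated classes, while mice 2 and 3 of LPC day 4 and mice 1 to 3 of vehicle day 4 are bright.

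Among the keratins of the cortex, Krt31 (Entrez 16660, chromosome 11, 100046646 to 100050551), whose promoter is shown above, had 0.93, 1.56, 4.56 and 14.7 FPKM in LPC day 7, 5.04, 12.9, 0.13 and 24.6 in vehicle day 7, 15.73, 73.0, 122 and 0.29 in LPC day 4, and 87.8, 222, 97.8 and 10.4 in vehicle day 4. Means were 5.44 ± 6.37, 10.7 ± 10.7, 52.6 ± 55.6 and 105 ± 87.8 FPKM in the same order of groups (SD, n = 4 each). All groups overlapped, since the lowest day 4 mouse of each treatment lay inside the day 7 range or below it. Krt83, a type II keratin of the cortex, averaged 7.92 ± 5.85 FPKM in LPC day 7, 8.77 ± 9.27 in vehicle day 7, 47.1 ± 50.8 in LPC day 4 and 96.8 ± 86.5 in vehicle day 4. Krt33a, Krt33b, Krt34, Krt81 and Krt86, also keratins of the cortex, had the same high and low mice within each group at day 4. Their highest values lay between 83.4 FPKM (Krt86) and 171 FPKM (Krt33a), all in mouse 2 of vehicle day 4.

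Krt32 (Entrez 16670, chromosome 11, 100080848 to 100088269), a type I keratin of the hair cuticle, had 0.87, 0.60, 2.44 and 2.62 FPKM in LPC day 7, 2.04, 4.09, 0.40 and 11.2 in vehicle day 7, 5.59, 38.8, 61.4 and 1.02 in LPC day 4, and 41.4, 47.9, 54.0 and 7.03 in vehicle day 4. With LPC, 3 of the 4 day 4 mice lay above all day 7 mice, and with vehicle mouse 4 of day 7 lay above mouse 4 of day 4. Krt82, the type II keratin of the cuticle, averaged 0.718 ± 0.551 FPKM in LPC day 7, 1.96 ± 2.07 in vehicle day 7, 12.5 ± 14.7 in LPC day 4 and 16.9 ± 10.6 in vehicle day 4. Krt35, an early hair keratin of matrix, cortex and cuticle, averaged 5.06 ± 5.60, 7.48 ± 7.56, 57.2 ± 58.2 and 105 ± 86.5 FPKM in the same order.

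The keratins of the inner root sheath had the highest single values of the set. Krt71 (Entrez 56735, chromosome 15, 101733949 to 101743097), which is mutated in mice with wavy coats, had 1.83, 5.54, 7.60 and 44.5 FPKM in LPC day 7, 7.33, 16.7, 0.07 and 12.4 in vehicle day 7, 4.71, 48.3, 96.2 and 7.66 in LPC day 4, and 56.0, 531, 96.4 and 17.2 in vehicle day 4. Mouse 2 of vehicle day 4 stood at 531 FPKM, 5.52 times mouse 3 of LPC day 4, the next mouse in the summed FPKM of the whole set. Krt25 (Entrez 70810, chromosome 11, 99315516 to 99322951), its type I counterpart with the highest level, averaged 18.5 ± 16.3 FPKM in LPC day 7, 15.3 ± 12.2 in vehicle day 7, 77.2 ± 82.7 in LPC day 4 and 198 ± 208 in vehicle day 4. For Krt25 and Krt71, all 4 vehicle mice of day 7 lay below all 4 vehicle mice of day 4.

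Krt72 (Entrez 105866), an inner root sheath keratin known from the sheath's own cuticle in human follicles, had low levels in most mice and a high level in 2. It had 0.20, 0.29, 0.46 and 8.93 FPKM in LPC day 7, 0.26, 0.71, 0.03 and 0.91 in vehicle day 7, 0.03, 3.96, 5.03 and 0.17 in LPC day 4, and 4.07, 52.8, 3.68 and 0.81 in vehicle day 4. Its mean in LPC day 7 (2.47 ± 4.31 FPKM) rests on mouse 4, and its mean in vehicle day 4 (15.3 ± 24.99 FPKM) on mouse 2 (SD, n = 4 each).

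Among keratin-associated proteins, the highest mean over the 16 mice belonged to Krtap8-1 (Entrez 16703, chromosome 16, 89487374 to 89487952), a glycine-tyrosine-rich protein. It had 2.36, 5.16, 10.3 and 30.3 FPKM in LPC day 7, 6.33, 12.9, 0.09 and 26.98 in vehicle day 7, 13.2, 100, 140 and 0.09 in LPC day 4, and 93.7, 277, 102 and 20.4 in vehicle day 4. Krtap17-1, an ultrahigh-sulphur protein known from the cuticle in human hair, averaged 3.69 ± 2.90, 10.5 ± 13.2, 63.8 ± 73.3 and 84.0 ± 48.8 FPKM in LPC day 7, vehicle day 7, LPC day 4 and vehicle day 4 (SD, n = 4 each). In both genes mouse 4 of LPC day 4 lay below all LPC day 7 mice while each of the other 3 mice of that group lay above at least 3 of the 4 LPC day 7 mice.

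Smaller members of the set followed the same mice at lower levels. Krtap5-4 (Entrez 50775, chromosome 7, 142303502 to 142304503), whose promoter window is shown above, had 0.15, 0.07, 0.53 and 0.38 FPKM in LPC day 7, 0.40, 1.35, 0 and 4.53 in vehicle day 7, 1.14, 14.6, 30.7 and 0 in LPC day 4, and 17.7, 14.4, 20.3 and 2.57 in vehicle day 4. Krtap12-1 (Entrez 16694, chromosome 10, 77720586 to 77721256), a high-sulphur protein known from the cuticle in human hair, had 0.47, 0.44, 1.72 and 0.45 FPKM in LPC day 7, 0.59, 4.49, 0.16 and 12.6 in vehicle day 7, 4.86, 38.3, 66.0 and 0.08 in LPC day 4, and 55.3, 30.5, 39.1 and 3.10 in vehicle day 4. For both genes 3 of 4 LPC mice at day 4 lay above every LPC mouse of day 7, and mouse 4 lay below them all. With vehicle the days overlapped, since mouse 4 of day 7 lay above mouse 4 of day 4 for both genes.

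**Figure D2:**
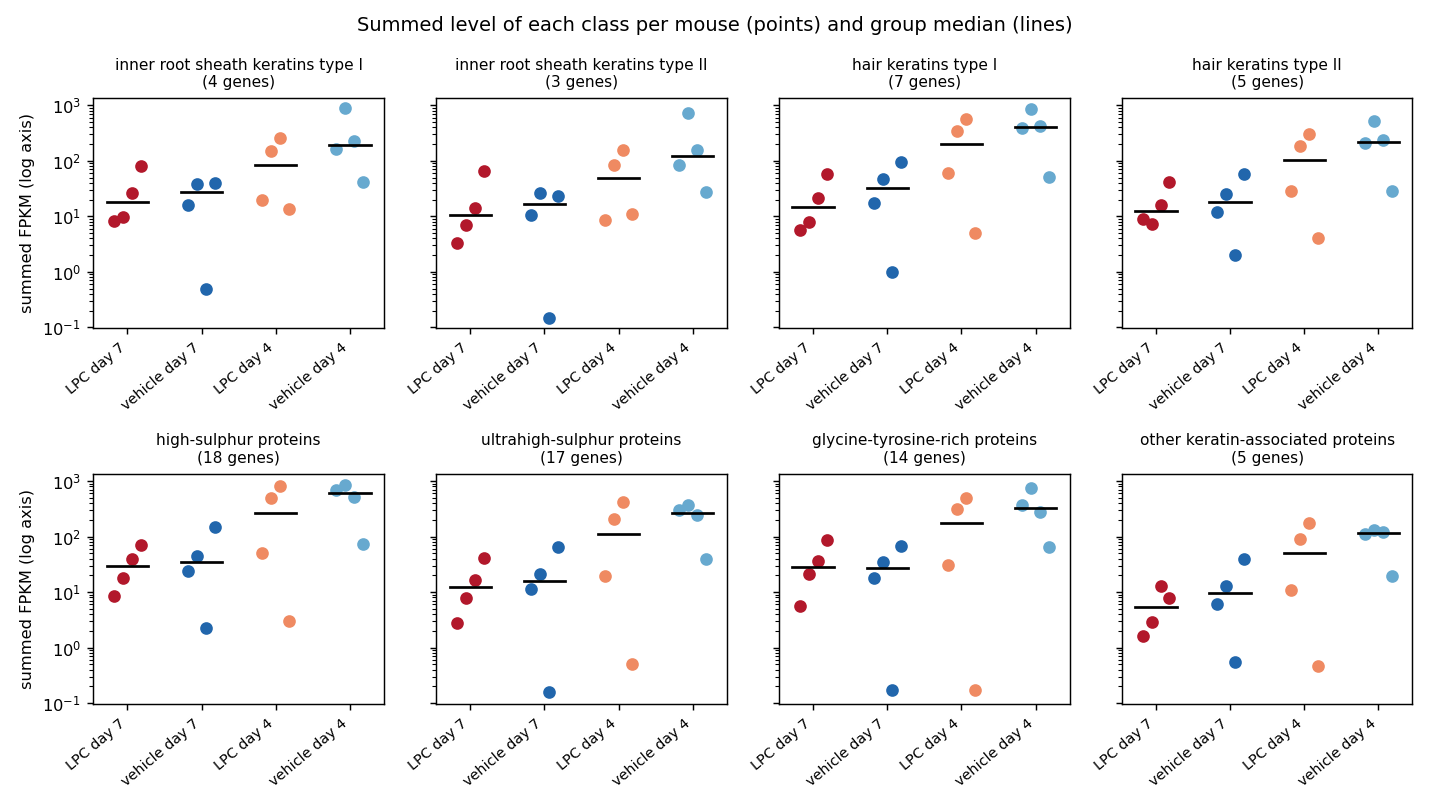
Summed FPKM of each of the 8 classes (log axis) per mouse, with points for single mice and lines for group medians, for LPC day 7, vehicle day 7, LPC day 4 and vehicle day 4. In every class the day 7 medians lie below the day 4 medians of the same treatment, and mouse 3 of vehicle day 7 is the lowest vehicle mouse.

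By class, the summed level was lower at day 7 in the median of both treatments. High-sulphur proteins, the largest class, had medians of 29.1 FPKM in LPC day 7, 34.6 in vehicle day 7, 270 in LPC day 4 and 603 in vehicle day 4. Ultrahigh-sulphur proteins had 12.1, 16.1, 113 and 270 FPKM in the same order, and glycine-tyrosine-rich proteins 28.3, 26.6, 175 and 323. Type I and type II hair keratins had 14.4 and 12.4 FPKM in LPC day 7, 32.4 and 18.4 in vehicle day 7, 199 and 106 in LPC day 4, and 403 and 222 in vehicle day 4. Inner root sheath keratins of type I and type II had 18.3 and 10.5 FPKM in LPC day 7, 26.98 and 16.6 in vehicle day 7, 84.4 and 48.2 in LPC day 4, and 196 and 120 in vehicle day 4.

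With vehicle, the genes had lower levels at day 7 than at day 4, but none passed the test over all genes. Of the 69 genes that passed a filter on low counts, edgeR's quasi-likelihood test with Benjamini-Hochberg adjustment over 15782 genes called 0, against 0% of all genes, with the lowest adjusted p at 0.21. At an unadjusted p below 0.05, 64 of the 69 were lower at day 7, against 5.67% of all genes tested. The median log2 fold change (day 7 over day 4) of the 69 was -3.56, and that of all genes was 0. Values ran from -5.78 (Krtap4-13) to -2.40 (Krtap3-2), leaving out Krtap31-1, which had 0 counts in all 4 vehicle mice of day 7 and 110 in vehicle day 4. Against a limit of 3 counts over the group, the log2 fold change of Krtap31-1 was -5.15 or lower. DESeq2 called 6 of the genes, against 1.57% of all genes, and limma-voom with sample weights 16, against 13.2% of all genes, while limma on log2(FPKM + 0.1) and on log2(FPKM + 1) called 0. Leaving out any single mouse left edgeR's count for the set at 0. The count at an unadjusted p below 0.05 then lay between 31 and 69, and it was 31 without mouse 2 of vehicle day 4 and 41 without mouse 1 of vehicle day 7.

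In FPKM, all 4 vehicle mice of day 7 lay below all 4 of day 4 for 22 of the 73 genes, against 2.72% of all genes listed. These were 4 inner root sheath keratins (Krt25, Krt27, Krt28 and Krt71), 7 glycine-tyrosine-rich genes such as Krtap19-1 and Krtap6-2, 7 ultrahigh-sulphur genes of the Krtap4 and Krtap9 families, Krtap1-5 and Krtap2-4, which are high-sulphur genes, and Krtap31-1 and Krtap31-2. None of the 12 hair keratins of type I and type II was among them. For each of these 12, mouse 4 of vehicle day 7 lay above mouse 4 of vehicle day 4, with 24.6 and 10.4 FPKM of Krt31, for example.

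With LPC, Krt32, Krtap5-4 and Krtap12-1 fell at day 7, and the other genes did not pass the test. Krt32 averaged 2.90 ± 1.79 CPM (counts scaled to the library total) at day 7 and 43.5 ± 47 at day 4 (SD, n = 4 each), a log2 fold change of -3.90 ± 1.14 (SE, edgeR adjusted p = 0.041). Krtap5-4 averaged 0.284 ± 0.215 CPM at day 7 and 11.2 ± 14 at day 4, with a log2 fold change of -5.27 ± 1.56 (edgeR adjusted p = 0.043). For Krtap12-1 the means were 0.542 ± 0.436 CPM at day 7 and 17.3 ± 19.7 at day 4, giving -4.98 ± 1.5 on the log2 scale (edgeR adjusted p = 0.046). Krt32 is a cuticle keratin, and Krtap5 and Krtap12 genes are known from the cuticle of human hair, but 8 of the 11 cuticle genes listed further on, a list chosen after values had been seen, were not called here. Krt82, the type II partner of Krt32, had a log2 fold change of -3.99 ± 1.32 (edgeR adjusted p = 0.064).

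Of the 69 genes tested 3 fell and 0 rose, while 4.13% of all genes tested fell and 6.87% rose, so the share that fell is near that of all genes. At an unadjusted p below 0.05, 38 of the 69 were lower at day 7, against 12.9% of all genes, and the 69 had a median of -2.77 on the log2 scale, against 0.03 for all genes. Without mouse 3 of LPC day 4, 11 genes were under that p. There were 20 without mouse 2 of LPC day 7, 21 without mouse 1 of LPC day 7 and 25 without mouse 2 of LPC day 4. There were 53 without mouse 4 of LPC day 7, 19 with a replicate block, 6 with a muscle score as covariate and 0 with limma-voom. Values ran from -5.27 (Krtap5-4) to 0.22 (Krt72). The calls depended on single mice: leaving out each of the 16 mice in turn ended the call of Krt32 in 9 cases, of Krtap12-1 in 10 and of Krtap5-4 in 11. The count was 0 without mouse 1, 2 or 4 of LPC day 7, mouse 2 of vehicle day 7, mouse 2 or 3 of LPC day 4, or mouse 1 or 2 of vehicle day 4. It was 1 without mouse 1 of LPC day 4 and 18 without mouse 4 of LPC day 4, the mouse with few hair transcripts. No gene of the set had all LPC mice of day 7 below all those of day 4 (0 of 73), against 10.9% of all genes listed. DESeq2 called 17 of the genes, against 19.5% of all genes, and limma-voom 0, against 7.69%. The count was also 0 with a muscle score as covariate. The muscle list summed to 188 to 8878 FPKM in LPC day 7 and 172 to 1579 in LPC day 4. Of its 10 genes, 8 were higher at an unadjusted p below 0.05, against 30.8% of all genes in either direction, and 0 were called. The part of muscle in the differences of the hair genes between the days was not tested.

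A comparison of day 7 with day 4 averaged over both treatments, chosen after the data were seen, called 49 of the 69 genes, all lower at day 7, against 3.92% of all genes tested that fell and 6.82% that rose. It uses the same libraries as both comparisons above and is no independent support for them. At an unadjusted p below 0.05, 68 of 69 were lower, and the remaining gene was Krt26. Their median was -3.22 on the log2 scale, against 0.02 for all genes. Krt32 had the lowest adjusted p (log2 fold change -3.50 ± 0.783, edgeR adjusted p = 0.018), followed by Krt84 (-2.99 ± 0.695, adjusted p = 0.020).

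The averaged comparison called 11 of 12 hair keratins and 2 of 7 inner root sheath keratins. Among hair keratins, 6 of 7 of type I and 5 of 5 of type II fell, with log2 fold changes from -3.61 (Krt35) to -2.94 (Krt36), and Krt34 did not pass (-3.19 ± 0.983, edgeR adjusted p = 0.050, over the threshold before rounding). Among inner root sheath keratins, Krt25 (-2.82 ± 0.847, adjusted p = 0.047) and Krt73 (-2.81 ± 0.857, adjusted p = 0.049) fell, while Krt26, Krt27, Krt28, Krt71 and Krt72 had values from -2.79 (Krt71) to -2.02 (Krt26) and adjusted p from 0.062 to 0.20. Whether shaft and sheath keratins differ in their response was not tested.

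Among keratin-associated proteins, 16 of 17 high-sulphur, 8 of 16 ultrahigh-sulphur, 8 of 13 glycine-tyrosine-rich and 4 of 4 other genes tested fell. In the ultrahigh-sulphur class, all 5 Krtap5 genes fell, with log2 fold changes from -4.21 to -3.39, and 1 of 8 Krtap4 genes did, with values from -3.83 to -2.67. Krtap17-1 fell by 3.51 ± 0.979 on the log2 scale (edgeR adjusted p = 0.036). In the glycine-tyrosine-rich class, 6 of 6 Krtap19 genes fell, from -4.38 to -2.95, while Krtap8-1 (-2.86 ± 0.946, edgeR adjusted p = 0.066) and Krtap7-1 (-3.01 ± 0.969, adjusted p = 0.060) did not pass. Reads of related Krtap genes may have been divided between them by the authors' counting, so separate values within a family are uncertain. Krtap19-4, Krtap19-5 and Krtap19-9b had whole counts in every library.

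The count of 49 also moved with the tool and with single mice. It was 3 with limma-voom, against 19.9% of all genes, 5 and 17 with limma on log2(FPKM + 0.1) and log2(FPKM + 1), against 8.29% and 8.40% of all genes, 1 with a replicate block, against 5.08%, and 62 with DESeq2, against 16.7%. With a muscle score as covariate it was 43, against 13.6% of all genes. The share of all genes called in either direction was 10.7% over all mice and lay between 3.13% and 18.3% with single mice left out. The count was 1 without mouse 1 of vehicle day 7 (3.13% of all genes), 2 without mouse 3 of LPC day 4 (4.32% of all genes), 4 without mouse 3 of vehicle day 7 (3.78% of all genes) or mouse 1 of vehicle day 4, and 10 without mouse 2 of LPC day 4 or mouse 3 of vehicle day 4. It was 12 without mouse 2 of LPC day 7, 13 without mouse 2 of vehicle day 7, 16 without mouse 1 of LPC day 7 or mouse 2 of vehicle day 4, and 28 without mouse 3 of LPC day 7. It was 54 to 59 without mouse 4 of any of the 4 groups. The median log2 fold change of the set stayed between -3.69 and -2.69 through these 16 fits, and 61 to 69 genes had an unadjusted p below 0.05.

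**Figure D3:**
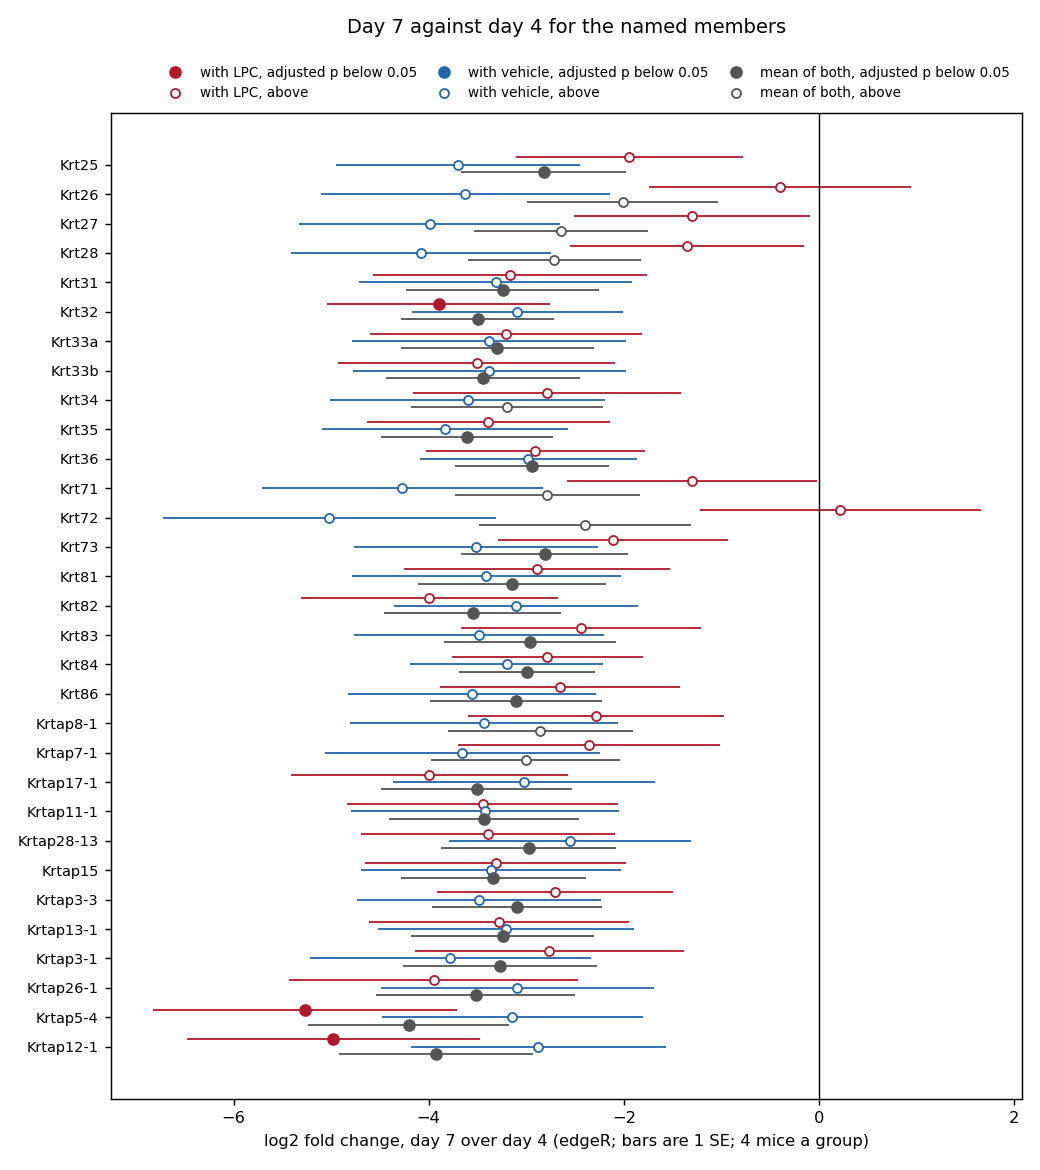
Log2 fold changes of day 7 over day 4 (horizontal axis, bars of 1 SE from edgeR, 4 mice a group) for the keratins, the keratin-associated genes with the highest FPKM and the genes called, with LPC, with vehicle and as the mean of both; filled points passed an adjusted p of 0.05. Points lie left of 0 except Krt72 with LPC at 0.22, and the 3 filled points with LPC are Krt32, Krtap5-4 and Krtap12-1.

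Partners of the shaft genes in the follicle were examined as a list of 18 genes, of which 17 were found and tested. In the averaged comparison 7 of the 17 fell and 1 rose, against 3.92% of all genes tested that fell and 6.82% that rose. Shh, the signal of the growing hair bulb, fell by 4.73 ± 0.756 on the log2 scale (edgeR adjusted p = 0.0053), with 0.02, 0.05, 0.02 and 0 FPKM in LPC day 7, 0.02, 0.04, 0 and 0.03 in vehicle day 7, 0.10, 0.50, 0.68 and 0.23 in LPC day 4, and 0.25, 3.01, 0.97 and 0.21 in vehicle day 4. Every day 7 mouse lay below every day 4 mouse, at levels near the lowest listed. The cuticle calcium-binding protein S100a3 (-3.53 ± 0.839, adjusted p = 0.022), the desmosomal cadherin Dsg4 (-3.13 ± 0.831, adjusted p = 0.031) and the transcription factor genes Lef1 (-2.02 ± 0.484, adjusted p = 0.023), Msx2 (-1.86 ± 0.447, adjusted p = 0.023), Dlx3 (-1.65 ± 0.439, adjusted p = 0.032) and Gata3 (-0.78 ± 0.158, adjusted p = 0.013) also fell. Hoxc13 did not pass (-2.16 ± 0.670, edgeR adjusted p = 0.052). Tgm3, a transglutaminase of hair and of the upper epidermis, rose (1.21 ± 0.339, adjusted p = 0.037).

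With LPC alone, Gata3 (-1.09 ± 0.224, edgeR adjusted p = 0.012) and Shh (-3.78 ± 1.06, adjusted p = 0.036) were the 2 of the 17 partners that fell at day 7, against 4.13% of all genes tested. With vehicle alone edgeR called 0 of 17, against 0% of all genes. At an unadjusted p below 0.05, 11 of the 17 were lower, against 5.67% of all genes, and 1 was higher. Other markers of skin moved with the day as well. In the averaged comparison 3 of 5 fibroblast, 2 of 4 macrophage, 1 of 5 neutrophil, 2 of 7 epidermal and 1 of 6 dermal papilla genes rose, against 6.82% of all genes tested. Of 7 outer root sheath genes 1 fell (Sox9, -1.29 ± 0.188, edgeR adjusted p = 0.0043), against 3.92% of all genes. Fibroblast markers summed to 581 to 3066 FPKM in LPC day 7, 690 to 1481 in vehicle day 7, 337 to 914 in LPC day 4 and 313 to 675 in vehicle day 4. Macrophage markers summed to 42.4 to 203, 48.4 to 99.2, 28.02 to 53.4 and 31.8 to 54.0 in the same order. Outer root sheath markers summed to 1381 to 3468, 1603 to 2476, 1525 to 2348 and 1732 to 3461. Most of this sum was Krt17, which averaged 2205, 1217, 1332 and 1679 FPKM. Over the 7 outer root sheath genes the median log2 fold change was -1.08 with LPC and -0.66 averaged, so the sums hide lower values of other genes. Dermal papilla markers summed to 39.96 to 59.6, 29.2 to 36.5, 15.4 to 32.6 and 24.6 to 38.9 FPKM. The high sums in LPC day 7 rest on Crabp1, which averaged 37.8, 11.9, 9.39 and 7.05 FPKM in the same order. Corin went the other way, at 2.96, 5.32, 5.36 and 14.2 FPKM. The median log2 fold change of this list was -0.37 with LPC and -0.11 averaged, so its sums show no common rise. The part of these cell types in the lower hair gene levels was not tested.

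At day 4, LPC was compared with vehicle to ask whether the injected lipid altered the set. All 69 genes had lower fitted levels with LPC, and none passed the test. The edgeR quasi-likelihood test called 0 of them, against 0.0444% of all genes lower and 0.139% in either direction, and 0 were under an unadjusted p of 0.05, against 10.2% of all genes lower. On the log2 scale (LPC over vehicle) the median was -0.76, against 0 for all genes, and it was -0.23 without mouse 2 of vehicle day 4, -1.77 without mouse 3 of LPC day 4 and -1.96 with limma-voom. Values ran from -2.76 (Krt72) to -0.02 (Krtap19-1). The lowest adjusted p was 0.33, and DESeq2, limma-voom and limma on log2 FPKM also called 0.

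The log2 fold changes of the 7 inner root sheath keratins at day 4 ran from -2.76 (Krt72) to -1.28 (Krt73), against -1.04 (Krt83) to -0.41 (Krt82) for the 12 hair keratins. Krt71 averaged 84.3 ± 93.6 CPM with LPC and 378 ± 525 with vehicle (SD, n = 4 each), a log2 fold change of -2.17 ± 1.31 (edgeR adjusted p = 0.38), and Krt31 81.0 ± 86.4 CPM with LPC and 161 ± 138 with vehicle, a log2 fold change of -0.99 ± 1.28 (adjusted p = 0.71). No gene had all LPC mice below all vehicle mice, against 8.21% of all genes listed. Sums over the set of 230, 1860, 3202 and 37.8 FPKM with LPC and 2317, 5093, 2184 and 346 with vehicle overlapped. With a standard error of 0.992 for Krt32 and 1.51 for Krt72 on the log2 scale, a difference of the size of the median was not detectable here. Without mouse 2 of vehicle day 4 the log2 fold change was -0.48 for Krt71, -0.30 for Krt25 and -0.29 for Krt31, and without mouse 3 of LPC day 4 it was -3.17 for Krt71, -2.28 for Krt25 and -1.86 for Krt31.

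The direction of the smaller differences rested on single mice. Krtap12-1 had -0.23 over all mice, and 0.11 without mouse 1 of LPC day 4, 0.18 without mouse 4 of LPC day 4 and 0.22 without mouse 1 of vehicle day 4. Krtap5-4 had -0.23 over all mice, and 0.15 and 0.19 without mouse 1 and mouse 4 of LPC day 4. The muscle list was lower with LPC at day 4 (172 to 1579 FPKM, against 2005 to 19570 with vehicle). Of its genes, 10 of 10 were lower at an unadjusted p below 0.05, against 10.2% of all genes, and 0 were called. The part of muscle in the differences of the hair genes was not tested.

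At day 7, LPC and vehicle mice had hair gene levels in the same range. The test called 0 of the 69 genes, against 3.83% of all genes, 1.44% lower and 2.38% higher, and 0 were under an unadjusted p of 0.05, against 8.47% of all genes lower, with the lowest adjusted p at 0.36. DESeq2, limma-voom and limma on log2 FPKM also called 0. Their median was 0.01 on the log2 scale, against 0.02 for all genes, and it was -0.79 without mouse 4 of LPC day 7 and 0.81 without mouse 4 of vehicle day 7. Leaving out Krtap31-1, at 0 in all vehicle mice, 36 genes had positive and 32 negative values, from -2.70 (Krtap5-3) to 2.92 (Krtap4-13). Krtap31-1 had 10.2 counts with LPC and was at least 1.84 higher on the log2 scale against the limit of 3 counts over the vehicle mice. No gene had all LPC mice below all vehicle mice, against 5.76% of all genes listed.

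None of the Krtap families had a member that passed the test at day 7, and their values lay on either side of 0. The 5 Krtap5 genes had values from -2.70 to -1.14 and the 2 Krtap10 genes -1.47 and -1.45, while the 8 Krtap4 genes had values from 0.59 to 2.92 and the 3 Krtap6 genes from 0.89 to 1.19. Krtap5-4 averaged 0.284 ± 0.215 CPM with LPC and 1.47 ± 1.87 with vehicle, a log2 fold change of -2.35 ± 1.49 (edgeR adjusted p = 0.42). Inner root sheath keratins had values from 0.13 (Krt73) to 2.47 (Krt72), with mouse 4 of LPC day 7 the highest mouse of its group for all 7 of them. Epidermal genes fell with LPC at day 7 in 4 of 7 cases (Krt1, Krt10, Lor and Flg), against 1.44% of all genes tested. Their list summed to 11210 to 16170 FPKM with LPC and 15920 to 23770 with vehicle. The median log2 fold change was 0.01 for the hair genes and -1.65 for the epidermal list.

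The difference between the LPC effect at day 7 and that at day 4 was tested as an interaction. It called 0 of the 69 genes, against 0% of all genes, with a lowest adjusted p of 0.25 (Krt72). Krt72 was also the only gene of the set under an unadjusted p of 0.05, against 6.15% of all genes lower and 16.9% in either direction, with a difference of 5.24 ± 2.18 on the log2 scale, and the median over the genes was 0.81. The median was 0.07 without mouse 4 of LPC day 7, 1.82 without mouse 3 of LPC day 4 and 3.56 with limma-voom. DESeq2, limma-voom and limma on log2 FPKM called 0.

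**Figure D4:**
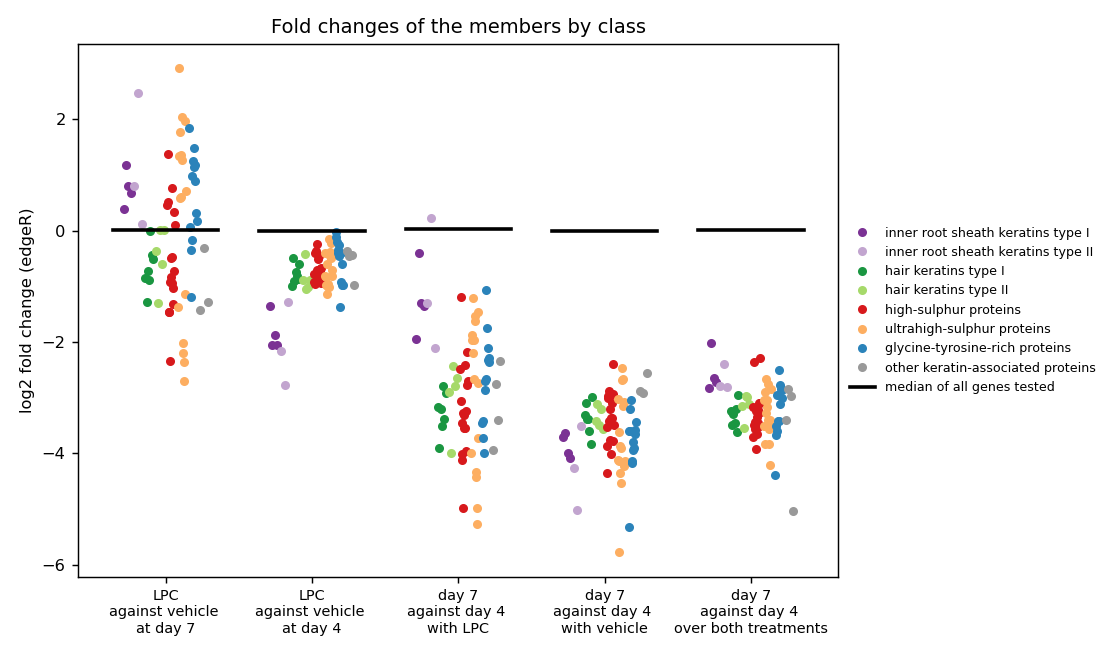
Log2 fold changes of the 69 tested genes (points, coloured by class) in the 5 pairwise or averaged comparisons, with the median of all genes tested as a black line. Krtap31-1 is left out of LPC against vehicle at day 7 and of day 7 against day 4 with vehicle, where a whole group had 0 counts. Points straddle the line for LPC against vehicle at day 7, lie below it at day 4 (from -2.76 to -0.02, median -0.76), and lie mostly between -2 and -5 for day 7 against day 4.

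The make-up of the hair transcripts also differed between mice. Genes of the cuticle (Krt32, Krt82, the 5 Krtap5 genes, Krtap10-4, Krtap10-10, Krtap12-1 and Krtap17-1, 11 in all) were set against the 7 inner root sheath keratins in the same library, which needs no scaling between libraries. Both groups of genes were chosen after values had been seen, so no test is given. The cuticle sum was 33.3%, 23.4%, 53.0% and 9.71% of the sheath sum in LPC day 7, 50.4%, 50.1%, 132% and 158% in vehicle day 7, 119%, 127%, 126% and 6.04% in LPC day 4, and 163%, 19.4%, 93.9% and 60.7% in vehicle day 4. All LPC mice of day 7 had less cuticle than sheath transcript, whereas 3 of 4 LPC mice of day 4 had more. Ratios differed most within day 4: mouse 4 of LPC had 1.49 FPKM of cuticle genes and 24.7 of sheath keratins, and mouse 2 of vehicle 313 and 1612.

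Mouse 4 of LPC day 4 had few shaft transcripts, with sheath transcripts inside the range of LPC day 7 (11.52 to 148 FPKM). Its sheath keratins summed to 811% of its cortical keratins (24.7 and 3.04 FPKM), against 51.4% to 70.5% in the other 3 mice of that group. The cortical sum here takes the 8 genes Krt31, Krt33a, Krt33b, Krt34, Krt36, Krt81, Krt83 and Krt86. This mouse had 8.22 FPKM of Krt25 and 7.66 of Krt71, against 0.29 of Krt31 and 0.28 of Krtap17-1. Krt35 and Krt84, which are not in the cortical sum, had 3.26 and 1.63 FPKM, inside the range of LPC day 7. With them, its type I and type II hair keratins summed to 4.96 and 4.06 FPKM. Mouse 3 of vehicle day 7, with the lowest total, was low in each, with 0.65 FPKM of sheath, 0.66 of cortical and 0.86 of cuticle genes. Mouse 2 of vehicle day 4 had the highest sheath sum (1612 FPKM) and the highest cortical sum (1010 FPKM), while mouse 3 of LPC day 4 had the highest cuticle sum (529 FPKM, against 313 in mouse 2 of vehicle day 4).

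**Figure D5:**
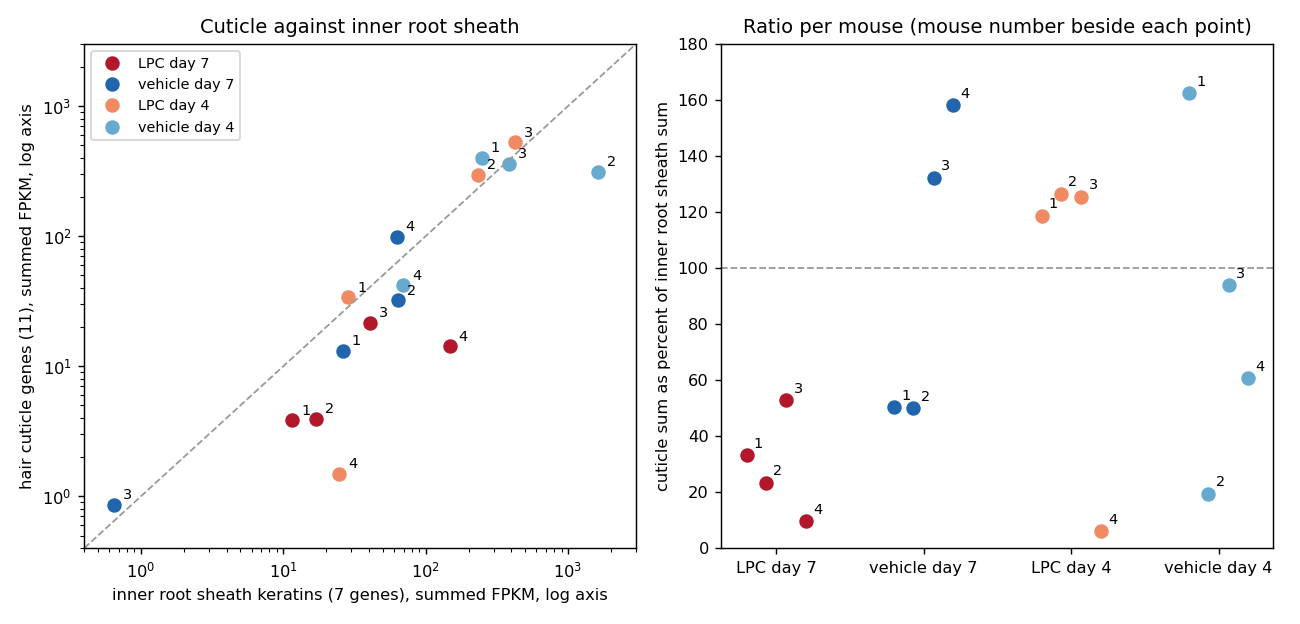
Left, summed FPKM of the 11 cuticle genes against that of the 7 inner root sheath keratins per mouse (log axes, dashed line at equal sums, mouse number beside each point); right, the same ratio in percent per mouse by group. The LPC day 7 mice lie between 9.71% and 53.0%, mouse 4 of LPC day 4 lies at 6.04%, and the other 3 LPC day 4 mice lie between 118.7% and 126.6%.

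Gene by gene, the 2 libraries with the most hair transcript differed in the same way. The FPKM of mouse 2 of vehicle day 4 divided by that of mouse 3 of LPC day 4 was 10.5 for Krt72, 5.52 for Krt71, 5.42 for Krt28, 4.74 for Krt26, 4.52 for Krt27, 2.73 for Krt25 and 2.58 for Krt73. For cortical keratins it lay lower, at 1.83 for Krt31 and 1.97 for Krt83, and for cuticle genes it was under 1, at 0.781 for Krt32, 0.770 for Krt82, 0.468 for Krtap5-4 and 0.463 for Krtap12-1. It was under 1 for all 11 cuticle genes, listed after values had been seen, and also for 14 of the other 62 genes of the set, with the lowest value of all, 0.305, for Krtap19-1. These are single libraries of different groups, so the ratios carry no replicate error.

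The 4 genes removed by the filter had few reads: Krtap13 had 2 expected counts over all libraries, Krtap20-2 8.29, Krtap9-5 41.0 and Krtap31-2 68.1. Of the set, 17 of 19 keratins and 38 of 54 keratin-associated genes had an expected count that was not whole (beyond 0.005) in at least 1 library, that is 75.3% of the 73, against 43.7% of all genes, which shows that reads were divided between genes. Krt32, Krt26, Krtap17-1, Krtap8-1 and Krtap7-1 had whole counts in every library.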

How the data were processed

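Each of the 16 libraries was placed in a group by its title. The labels' protocols name TRIpure for RNA extraction, a BGISEQ-500 sequencer, Bowtie2 for alignment to GRCm38 and RSEM for quantification. The sources used here give neither versions nor a strand setting. Per the file headers, the deposited values are of 2 kinds: the RSEM expected count of each gene, in which the authors' software divides reads shared by several genes, so that it can be a fraction, and the authors' FPKM. Genes that a library does not list were set to 0, and 0.01 was the lowest FPKM listed.

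Expected counts were rounded. In edgeR 4.0.16 under R 4.3.3, filterByExpr kept 15782 genes and removed 3657, and TMM gave scaling factors of 0.836 to 1.107. The quasi-likelihood fit used 1 mean for each group over all 16 libraries (12 residual degrees of freedom). P-values were adjusted by Benjamini-Hochberg over all genes tested, and genes under 0.05 were called; CPM values use the TMM-scaled totals. The code was run on counts simulated from the model's own fit, with known changes put into randomly chosen genes. This was not done for the hair genes separately, so it gives no error rate for them. The genes, lists and classes were chosen with earlier results of these data known. Genes named are the hair keratins, the 10 Krtap genes with the highest mean FPKM, called genes with the largest changes, and partner genes with the smallest p; others were chosen after their values were seen. Alternatives were RLE size factors, TMM without the hair genes, no filter, 1 CPM in at least 8 libraries, a muscle covariate, a replicate block, single mice left out, only the groups compared, limma-voom and limma (3.58.1) on log2 FPKM, DESeq2 1.42.0 and an added 2-fold criterion. Promoters are from RefSeq.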

Additional observations from a re-analysis of the deposited data

Results flagged for a closer look

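With 4 mice a group, a mouse was singled out where its gap to the nearest of the others exceeded the 95% critical value of Dixon's test. This was checked in 164 combinations of a gene or class and a group, and 12 were met. Chance alone gives about 1 in 20 only for independent values with a normal spread. Levels here differed by up to 84.6 times within a group, and the same mice were high across many genes. That rate therefore need not hold, and the 12 are no measure of an excess.

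Mouse 4 of LPC day 7 stood above the other 3 mice in 5 inner root sheath keratins and in their type II sum. It had 44.5 FPKM of Krt71, 24 of Krt27, 13.5 of Krt28, 8.93 of Krt72 and 3.82 of Krt26, and the type II sum was 65.7 FPKM. Mouse 2 of vehicle day 4 stood above its group for Krt71 (531 FPKM), Krt27 (228 FPKM) and Krt72 (52.8 FPKM). Mouse 4 of vehicle day 7 stood above its group for Krtap3-3, a high-sulphur protein, at 14.4 FPKM. Mouse 4 of vehicle day 4 lay below its group for Krtap28-13 at 12.8 FPKM and for Krtap26-1 at 5.46 FPKM, where the other 3 mice had 70.4 to 79.8 and 55.9 to 62.1 FPKM.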

How the results depend on the processing

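For LPC against vehicle at either day and for the difference between the days, 0 hair genes were called under every alternative run. With LPC, the count for day 7 against day 4 (3) was 0 with a muscle score as covariate, with the replicate block, with only the 2 groups compared, with limma-voom and with limma on log2(FPKM + 0.1) or log2(FPKM + 1), 17 with DESeq2, and 0 to 18 with single mice left out. With vehicle (0) it was 16 with limma-voom and 6 with DESeq2, and 0 with single mice left out. Averaged over treatments (49) it was 1 with the replicate block, 3 with limma-voom, 5 and 17 with limma on log2(FPKM + 0.1) and log2(FPKM + 1), 62 with DESeq2, and 1 to 59 with single mice left out. With a muscle score as covariate the averaged count was 43. The cause of these shifts was not tested. Over the alternatives with LPC, the adjusted p ran from 0.003 to 0.39 for Krt32, from 0.0054 to 0.57 for Krtap5-4 and from 0.0028 to 0.54 for Krtap12-1. The median log2 fold change of the genes stayed negative in every fit of day 7 against day 4, from -5.08 to -2.73 with vehicle, from -3.54 to -1.43 with LPC and from -3.69 to -2.22 averaged. In LPC against vehicle the median ran from -1.99 to -0.23 at day 4 and from -0.79 to 1.74 at day 7. Values of single genes were recomputed for 11 genes and not for the others. At day 4, with single mice left out, 3 of these 11 changed sign: Krtap12-1 from -1.20 to 0.22 (0.11, 0.18 and 0.22 without LPC mouse 1, LPC mouse 4 and vehicle mouse 1), Krtap5-4 from -1.43 to 0.19 (0.15 and 0.19 without LPC mouse 1 and LPC mouse 4) and Krtap17-1 from -1.39 to 0.02 (without LPC mouse 4). On the log2(FPKM + 0.1) scale the median of all genes moved by -0.12 for LPC against vehicle at day 7 and for day 7 against day 4 with LPC. Replicate numbers are shared between groups, but same-numbered libraries did not deviate together (correlations from -0.596 to 0.539 over 24 pairs, and 2 of 16 libraries correlated best with a library of their own number), so the block of replicates is a check and not a pairing. With 4 mice a group and levels that differ by up to 84.6 times within a group, small differences in the hair genes were not detectable.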
